A study of Danio rerio with 8 samples.

Results

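The genes described here encode the subunits of voltage-gated calcium and sodium channels in the zebrafish retina. They were chosen by symbol, as every gene of the count table whose name begins with *cacna*, *cacnb*, *cacng* or *scn* and a digit. Of 65 such genes, 5 that belong to *cacna1fa*, *cacna1fb*, *cacna2d4a* and *cacna2d4b* were left out by the same rule, which left 60 of the 32520 genes, under 57 symbols. The rule used no expression value. RNA-seq libraries of 4 retinal samples from homozygous *bbs2* -/- mutants were compared with 4 from *bbs2* +/+ wild-type siblings of the same heterozygous crosses. The fish of both genotypes were 6 months old and of both sexes, were dark-adapted overnight, and carry or lack the mutation in every cell of the body. The sources used here do not name the mutant allele. Each sample pooled 2 retinas, dissected so that little pigment epithelium came along. Bbs2 is part of the BBSome, a protein complex that sorts membrane proteins at the cilium, and the comparison asks which transcripts differ in a retina that is losing its cones.

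Voltage-gated calcium channels open when the membrane depolarizes, and the calcium that enters triggers transmitter release and shapes firing. Each channel has a pore-forming α1 subunit. In many channel types, though not all, an intracellular β subunit and an extracellular α2δ subunit bind to it and help the pore reach the surface. Most γ proteins are better known, from mammals, as auxiliary subunits of AMPA glutamate receptors than as calcium channel subunits. Voltage-gated sodium channels carry the upstroke of the action potential, which in the retina is best known from ganglion cells and some amacrine cells, and consist of a large α subunit with small single-pass β subunits. Zebrafish hold many of these genes in a pair of copies, named a and b, that date from a genome duplication in the fish lineage.

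The libraries held 7289910 to 11496801 counted reads in *bbs2* mutants and 6279179 to 8442827 in wild-type siblings. *bbs2* itself stood at 28.4, 27.3, 28.8 and 28.6 CPM in mutants, against 39.8, 45.5, 42.6 and 42.8 CPM in siblings, where CPM is a gene's read count relative to the library size after scaling by the TMM method. That is a log2 fold change (log2FC, mutant over sibling) of -0.59 with a standard error (SE) of 0.09 and an adjusted p of 8.82e-05 in edgeR. All 8 rod markers and all 8 cone markers were detected. The 8 cone markers summed to 4343 to 5086 CPM in mutants and 12510 to 13520 CPM in siblings, and all 8 were lower. The 9 pigment epithelium markers summed to 1272 to 1841 CPM in mutants and 68.1 to 192.8 CPM in siblings, and all 10 microglial markers were also higher, at 262 to 349.5 CPM in mutants and 62.5 to 89.5 CPM in siblings. The markers of amacrine cells (2210 to 2390 CPM in mutants, 2604 to 2850 CPM in siblings) and of ganglion cells (779 to 969 CPM in mutants, 1001 to 1129 CPM in siblings) did not overlap between genotypes either. Of these, 3 of 8 tested amacrine and 4 of 12 tested ganglion cell markers were lower, beside 13% of all tested genes. Horizontal cell markers did not overlap in sum (196.9 to 217.6 CPM in mutants, 221.3 to 273.3 CPM in siblings), and 2 of 5 tested were lower, beside 13%. Most of that sum was *prox1a*, at 112.9 to 134.0 CPM in mutants and 117.4 to 156.1 CPM in siblings. *prox1a* overlapped and was not called. The sums of rod markers (20620 to 28650 CPM in mutants, 17570 to 23450 CPM in siblings) and of bipolar cell markers overlapped. Most of the rod sum was *rho*. Of 8 tested rod markers 2 were higher and 1 lower, beside 15.2% and 13% of all tested genes. In bulk tissue fewer cells of a type and less RNA per cell cannot be told apart. Nor can a higher pigment epithelium signal be told apart from more of that tissue left on at dissection. The part that these shifts in marker levels have in the results below was not tested.

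Channel transcripts took a smaller share of the reads in mutant retinas. They made up 0.2507% to 0.2875% of all counts in the mutant libraries and 0.3041% to 0.3148% in the sibling libraries, with no overlap. Of the 60 genes, 53 had enough reads to be tested, and 24 of these (45.3%) were lower in mutants at a false discovery rate (FDR) of 0.05, against a background of 13% of all 17144 tested genes. Only 2 (3.77%) were higher, against a background of 15.2%, and in either direction 28.1% of all genes were called. The remaining 27 were not called, of which 21 had a negative and 6 a positive log2FC, and 4 had an unadjusted p under 0.05. For 14 of the 27 the 95% interval of the log2FC lay within 0.5 on either side of 0, whereas the others could differ by more.

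The decreases were small. Their log2FC ran from -0.84 to -0.25, with 20 of the 24 between -0.5 and 0, and the median over the 53 tested genes was -0.30, beside -0.01 over all tested genes. The CPM of the genotypes did not overlap for 22 of the 53 genes (41.5%), beside 29.3% of all tested genes. Among the 24 lower ones 20 did not overlap. These were picked by a test on the same libraries, so that count adds no support. Among calcium channel genes 18 of 41 tested (43.9%) were lower, and among sodium channel genes 6 of 12 (50%), beside 13% of all tested genes. The count of lower genes depended on the scaling, as did the share of all tested genes called lower. With plain library totals in place of TMM, under which the median of all genes is 0.09, 14 of 53 channel genes were lower, against 7.79% of all genes. A fit to the TPM of the authors (reads per transcript length, scaled to a common total) called 11 of 53 lower, against 8.22%.

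**Figure D1:**
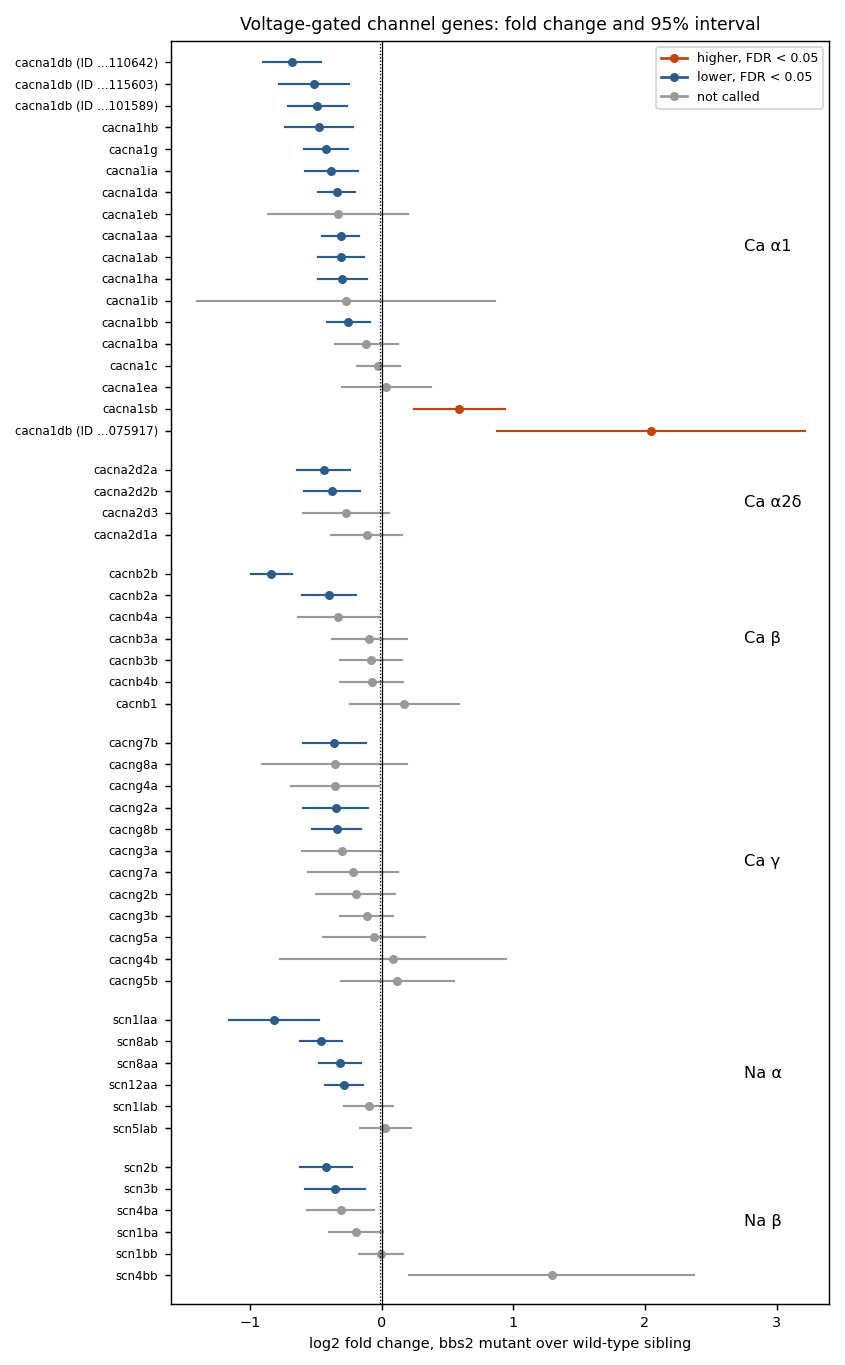
Log2 fold change of each tested channel gene, *bbs2* mutant over wild-type sibling, with its 95% interval from edgeR, grouped by subunit class. The dotted line marks the median of all tested genes (-0.01), and the 24 lower genes (blue) lie between -0.84 and -0.25 while 2 genes are higher (red).

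The α1 subunits form the pore and set the channel type. Of 18 tested α1 entries 11 were lower and 2 higher, beside 13% and 15.2% of all tested genes. Their median log2FC was -0.31. Each identifier listed as *cacna1db*, described below, is counted separately here. By TPM, which allows levels to be compared between genes, the α1 subunits summed to 378 ± 33.0 TPM in mutants and 481 ± 32.0 TPM in siblings (SD, n = 4 each), a ratio of 0.786 with no overlap. In this sum and in the shares below *cacna1db* enters as the mean of its partial entries. The identifier that the reference gene table names *cfap74* is left out there. By channel family the makeup of the α1 sum was nearly the same in both genotypes, though the shares of some single genes differed. L-type (Cav1) genes held 50.66 ± 1.77% of the α1 TPM in mutants and 52.57 ± 2.05% in siblings. Within them the share of *cacna1c* was 4.51 ± 0.31% in mutants and 3.55 ± 0.17% in siblings, with no overlap. Its own level was 17.04 TPM in mutants and 17.06 TPM in siblings, while the α1 sum was lower in mutants. The share of *cacna1sb* was 1.35 ± 0.14% in mutants and 0.686 ± 0.13% in siblings, also with no overlap. That of *cacna1db* was 27.7 ± 1.74% in mutants and 31.5 ± 3.45% in siblings, with overlap. Cav2 genes held 36.26 ± 1.298% in mutants and 34.26 ± 1.095% in siblings, and T-type (Cav3) genes 13.1 ± 0.56% in mutants and 13.2 ± 0.96% in siblings.

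Among L-type genes, *cacna1da* and *cacna1db* encode the low-threshold L-type channel of many neurons and sensory cells. The authors' table lists *cacna1db* under 4 identifiers. For 3 of them the length implied by counts and TPM was only 12%, 18.6% and 9.35% of that of *cacna1da*, as if each were a part of 1 gene model, and each was lower in mutants. ENSDARG00000110642 had 62.3, 75.4, 79.0 and 67.6 CPM in mutants, against 95.3, 107, 127 and 126 CPM in siblings, so every mutant library lay below every sibling library (log2FC -0.68, SE 0.10, edgeR adjusted p = 0.000133). ENSDARG00000115603 had 32.6, 31.0, 37.0 and 35.0 CPM in mutants, against 35.5, 47.4, 54.6 and 55.1 CPM in siblings, where sibling 1 reached into the mutant range (-0.51, SE 0.12, adjusted p = 0.00585). ENSDARG00000101589 had 41.1, 48.8, 47.5 and 42.7 CPM in mutants, against 53.2, 57.4, 67.4 and 74.3 CPM in siblings, with no overlap (-0.49, SE 0.11, adjusted p = 0.00258). Summed as 1 gene they gave 136, 155, 163 and 145 CPM in mutants, against 184, 212, 249 and 256 CPM in siblings (-0.59, SE 0.10, adjusted p = 0.000423). Counted that way, 22 of 50 tested channel genes (44%) were lower and 1 was higher.

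The remaining identifier, ENSDARG00000075917, had 2.57, 2.31, 1.74 and 1.74 CPM in mutants, against 0.332, 0.876, 0 and 0.758 CPM in siblings (log2FC 2.05, SE 0.55, adjusted p = 0.0104). The reference gene table names this identifier *cfap74*, after a protein of motile cilia, and not a calcium channel, so 1 of the 2 genes counted as higher is not named as a channel gene there.

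*cacna1da* was lower (-0.34, SE 0.07, adjusted p = 0.00094). It averaged 64.6 ± 7.09 TPM in mutants and 80.4 ± 3.29 TPM in siblings. *cacna1c*, the L-type channel of heart, smooth muscle and neurons, had a log2FC of -0.02 with a 95% interval of -0.19 to 0.14 and was not called. *cacna1sb* went the other way. It encodes the L-type α1 subunit that serves as the voltage sensor of skeletal muscle, and it was higher, with 14.2, 17.2, 18.3 and 16.7 CPM in mutants, against 8.62, 9.01, 13.4 and 12.9 CPM in siblings. Every mutant library exceeded every sibling library, and the log2FC was 0.59 (SE 0.16, adjusted p = 0.0126), though the adjusted p was 0.0584 and 0.056 in the fits to TPM. Its level stayed low, at 1.35 ± 0.14% of the α1 TPM in mutants and 0.686 ± 0.13% in siblings. The 18 skeletal muscle markers summed to 15.9 to 42.0 CPM in mutants and 17.9 to 107.6 CPM in siblings. None of the 3 that could be tested was called, *pvalb2* was at 0 in every library, and 10 of the 18 stayed under 10 counts in every library. Whether muscle tissue had a part in the level of *cacna1sb* was not tested.

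Cav2 channels carry the calcium current at most fast synapses. The P/Q-type copies were both lower, *cacna1aa* at -0.31 (SE 0.07, adjusted p = 0.00221) and *cacna1ab* at -0.31 (SE 0.08, adjusted p = 0.0106). Both calls were lost in the fits to TPM (0.0752 to 0.0764 and 0.108), and that of *cacna1ab* also with library totals (0.0939). *cacna1aa* was the second most abundant α1 gene per length, with 103.6, 87.5, 76.1 and 92.3 TPM in mutants, against 101, 110.0, 122 and 104.5 TPM in siblings. The highest mutant library overlapped the siblings on this scale, whereas the CPM used by the test did not overlap. Of the N-type copies, *cacna1bb* was lower (-0.25, adjusted p = 0.0205), a call that was lost without mutant 2 (adjusted p = 0.075) or mutant 4 (0.0506), in the fits to TPM (0.221 and 0.223) and with library totals (-0.15, 0.213). *cacna1ba* was not called (-0.12). The R-type copies *cacna1ea* and *cacna1eb* had a log2FC of 0.04 and -0.33 and were not called, *cacna1eb* with a wide interval of -0.86 to 0.20.

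T-type (Cav3) channels open at small depolarizations, and 4 of their 5 genes were lower, beside 13% of all tested genes. These were *cacna1g* (-0.42, adjusted p = 0.000684), *cacna1ha* (-0.30, 0.0173), *cacna1hb* (-0.48, 0.00774) and *cacna1ia* (-0.38, 0.00683). The call of *cacna1ha* was lost without sibling 1 (adjusted p = 0.0578) or mutant 4 (0.0614), in the fits to TPM (0.175) and with library totals (-0.20, 0.141). That of *cacna1hb* was lost in the fits to TPM (0.105 to 0.106), and that of *cacna1ia* there (0.108 to 0.109) and with library totals (0.0529), so only *cacna1g* kept its call in every alternative. *cacna1ib* was near the detection limit, at 0.174 to 1.75 CPM in mutants and 0.876 to 1.77 CPM in siblings, and its interval of -1.40 to 0.86 allowed a change either way.

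**Figure D2:**
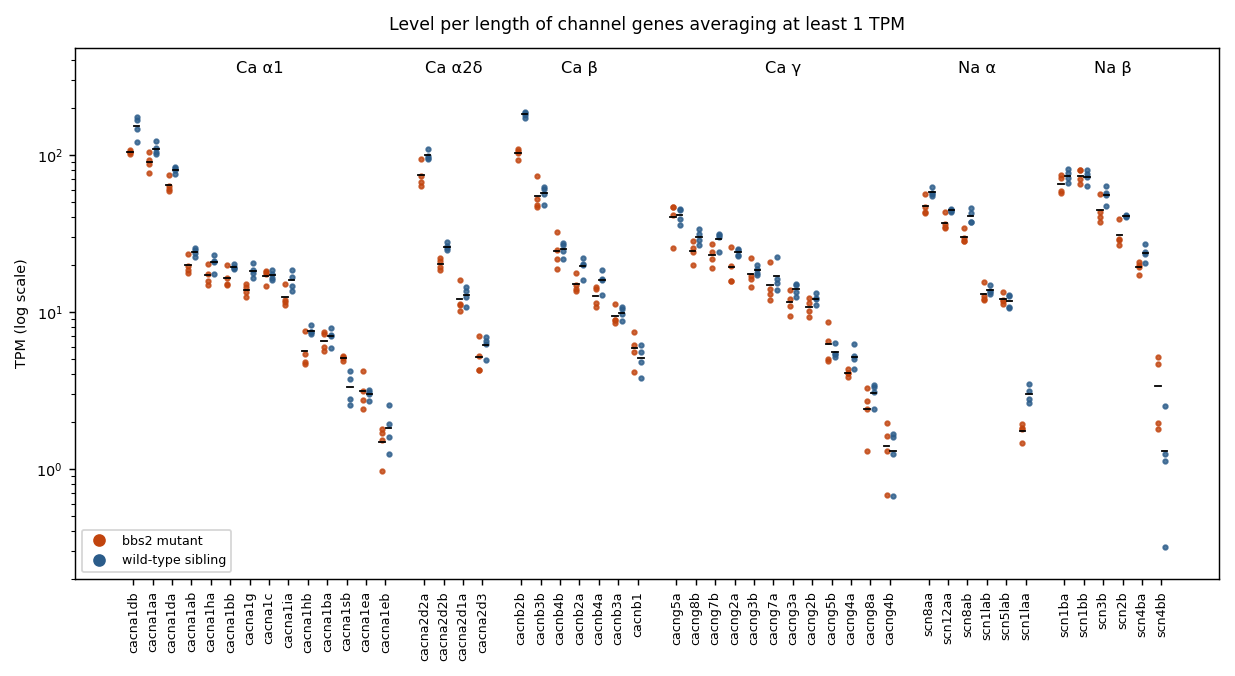
Level per length of channel genes that averaged at least 1 TPM, in TPM on a log scale, for each mutant (red, left of each pair) and sibling (blue) library, with the genotype mean as a bar. *cacnb2b* and *cacna1db* were the most abundant of these transcripts in both genotypes, and *cacna1db* is drawn as the mean of its 3 partial entries.

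The α2δ subunits, which bind the pore from outside the cell and raise its surface density, summed to 112 ± 18.3 TPM in mutants and 144 ± 7.47 TPM in siblings, a ratio of 0.777. *cacna2d2a* supplied most of this, 66.4 ± 1.58% in mutants and 68.8 ± 1.77% in siblings. It had 75.3, 67.1, 66.9 and 55.52 CPM in mutants, against 100.5, 83.2, 86.2 and 90.4 CPM in siblings, and the genotypes did not overlap (log2FC -0.44, SE 0.09, adjusted p = 0.00223). *cacna2d2b* had 37.0, 39.2, 48.0 and 35.9 CPM in mutants, against 52.1, 54.5, 47.6 and 54.3 CPM in siblings, where mutant 3 lay just above sibling 3 (-0.38, SE 0.10, adjusted p = 0.0104). Neither *cacna2d1a* (-0.11) nor *cacna2d3* (-0.27) was called.

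Of the 7 genes for cytoplasmic β subunits 2 (28.6%) were called, both lower, beside 28.1% of all tested genes called in either direction. Among them *cacnb2b* had the smallest adjusted p of all channel genes. It had 102, 125, 115 and 116 CPM in mutants, against 198, 208, 200.1 and 212 CPM in siblings. The lowest sibling stood far above the highest mutant, and mutant retinas held 0.559 times the sibling level (log2FC -0.84, SE 0.07, edgeR adjusted p = 6.35e-07). Per length it was also the most abundant channel transcript in siblings, at 181 ± 6.53 TPM, and stood at 103 ± 7.07 TPM in mutants. In mammals the β2 subunit is the partner of the L-type channel at photoreceptor synapses. Beside its decrease stand the cone markers, whose sum in mutants was 0.365 times that in siblings. The rod markers summed to 1.294 times the sibling level, but most of that sum was *rho* (log2FC 0.60). The median log2FC of the 8 tested rod markers was -0.01. A link to the cone or the rod markers was not tested.

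*cacnb2a* was also lower (-0.40, SE 0.10, adjusted p = 0.00479), though not in the fits to TPM (0.0724 to 0.0734). The symbols of these 2 copies have been exchanged between annotation releases, since the reference table gives each the other's symbol as an older name, and the names here are those of the authors' table. *cacnb3b*, the next most abundant β gene, had 41.8, 31.6, 33.0 and 32.6 CPM in mutants, against 40.0, 35.8, 39.0 and 32.3 CPM in siblings. These ranges overlapped, and the log2FC of -0.08 had an interval of -0.31 to 0.15. *cacnb1*, *cacnb3a*, *cacnb4a* and *cacnb4b* lay between -0.33 and 0.17 and were not called. All β genes together came to 225 ± 24.0 TPM in mutants and 313 ± 14.9 TPM in siblings, a ratio of 0.718. Within that sum the share of *cacnb2b* was 45.9 ± 4.19% in mutants and 57.8 ± 2.83% in siblings, and the share of *cacnb3b* was 24.3 ± 2.97% in mutants and 18.2 ± 1.48% in siblings.

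In the γ class 3 of 12 tested genes (25%) were lower and none was higher, beside 13% and 15.2% of all tested genes. Its genes summed to 177 ± 25.0 TPM in mutants and 202 ± 12.03 TPM in siblings, with overlap. *cacng5a*, whose relatives in mammals bind AMPA receptors, was the most abundant, with 41.1, 26.1, 51.3 and 40.4 CPM in mutants, against 36.3, 38.7, 43.9 and 46.2 CPM in siblings. Mutant libraries 2 and 3 bracketed all the others, and no difference was called (-0.06, interval -0.45 to 0.33). *cacng8b*, of the class that carries AMPA receptors to the synapse, had 41.6, 40.9, 36.5 and 41.3 CPM in mutants, against 49.2, 51.8, 54.9 and 46.8 CPM in siblings, with every mutant below every sibling (-0.34, SE 0.09, adjusted p = 0.00773). *cacng2a* (-0.35, adjusted p = 0.0351) and *cacng7b* (-0.36, 0.0258), from the same family, were lower in the fit of all 8 libraries but not without some of them. The call of *cacng2a* was lost without mutant 2, 3 or 4 or sibling 1, 2 or 4 (adjusted p 0.0512 to 0.11), and that of *cacng7b* without mutant 3 or 4 or sibling 2, 3 or 4 (0.052 to 0.0827). With library totals and in the fits to TPM none of these 3 γ calls held (adjusted p 0.0785 to 0.0976 for *cacng8b*, 0.132 to 0.173 for *cacng2a* and 0.093 to 0.129 for *cacng7b*). The other 9 tested γ genes ranged from -0.36 to 0.12.

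Sodium channel α subunits summed to 141 ± 15.9 TPM in mutants and 171 ± 3.81 TPM in siblings, a ratio of 0.826 with no overlap. Of 6 tested genes 4 were lower, beside 13% of all tested genes. *scn8aa* and *scn8ab* encode the channel that clusters at the axon initial segment and the nodes of Ranvier, and with *scn12aa* they were the 3 most abundant per length. *scn8aa* had 182, 175, 176 and 152 CPM in mutants, against 234, 204, 205 and 211 CPM in siblings (-0.31, SE 0.08, adjusted p = 0.0051). *scn8ab* was lower as well (-0.46, SE 0.07, adjusted p = 0.000222). *scn12aa*, of the group that includes the mammalian heart and sensory neuron channels, had 119.7, 110.1, 117 and 111 CPM in mutants, against 141, 134, 135 and 148 CPM in siblings (-0.28, SE 0.07, adjusted p = 0.00501). For none of these 3 genes did the CPM of the genotypes overlap. Of the α TPM *scn8aa* held 33.3 ± 0.95% in mutants and 33.7 ± 1.96% in siblings, and *scn12aa* 26.2 ± 0.97% in mutants and 25.9 ± 1.04% in siblings. The share of *scn8ab* was 21.3 ± 0.30% in mutants and 23.8 ± 1.91% in siblings, with every mutant library below every sibling library. Their calls outlasted every left-out library, but with library totals the adjusted p was 0.0613 for *scn8aa* and 0.079 for *scn12aa*, and in the fits to TPM it was 0.0636 to 0.0644 and 0.0851 to 0.0857.

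*scn1laa* and *scn1lab*, copies of the ancestor of the mammalian brain-type sodium channels, were tested one by one and as a pair. *scn1laa* was lower, with 6.27, 6.74, 5.91 and 6.56 CPM in mutants, against 9.95, 12.8, 10.0 and 12.1 CPM in siblings (-0.82, SE 0.16, adjusted p = 0.0012). All mutant libraries lay well under the siblings, at 0.567 times their level. *scn1lab*, the more abundant copy, had a log2FC of -0.10 with an interval of -0.29 to 0.09 and was not called. The ratio between the copies, given below, did not overlap between genotypes. Its exact permutation test gave an adjusted p of 0.271 over all pairs of channel copies matched by symbol. With 4 against 4 samples that test passes only if many pairs reach the smallest possible p. It therefore cannot decide whether the copies moved unequally. *scn5lab*, which an older annotation called *scn12ab*, was not called either (0.03, interval -0.17 to 0.22).

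The sodium channel β subunits, small proteins that tune the α subunit and also act in cell adhesion, summed to 237 ± 24.1 TPM in mutants and 268 ± 19.3 TPM in siblings, with overlap. The most abundant were *scn1bb* and *scn1ba*. *scn1bb* had 70.6, 71.1, 71.5 and 77.9 CPM in mutants, against 77.1, 71.7, 77.7 and 66.0 CPM in siblings, ranges that coincide (-0.01, interval -0.17 to 0.16). *scn1ba* had 61.9, 75.3, 62.1 and 56.5 CPM in mutants, against 82.2, 74.8, 67.9 and 68.4 CPM in siblings, and was not called (-0.19, adjusted p = 0.154), though it was without mutant 2 (adjusted p = 0.0406). *scn2b* (-0.42, adjusted p = 0.00275) and *scn3b* (-0.36, 0.021) were lower, the second not without sibling 1 or mutant 3 or 4 (0.062 to 0.0685), with library totals (0.126) or in the fits to TPM (0.0875 to 0.0904). *scn4ba* (-0.31) missed the threshold with an adjusted p of 0.0663. *scn4bb* had 1.75, 4.81, 2.00 and 5.08 CPM in mutants, against 0.332, 1.13, 1.22 and 2.65 CPM in siblings, and missed it with a positive log2FC of 1.29 (adjusted p = 0.0723). It passed without sibling 4 (0.0177), mutant 1 (0.0433) or mutant 3 (0.0455), and with library totals (1.39, adjusted p = 0.0489).

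**Figure D3:**
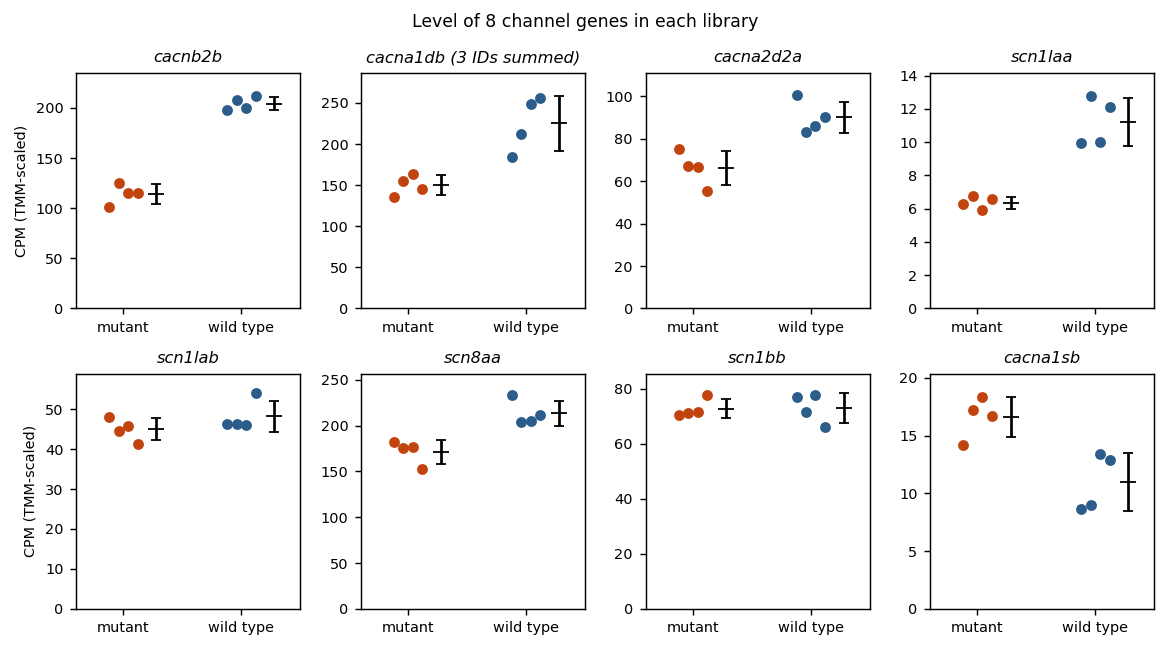
CPM (TMM-scaled) of 8 channel genes in each library, mutant (red) left and wild-type sibling (blue) right, with mean and SD (n = 4 each) beside the points. *cacnb2b*, *cacna1db*, *cacna2d2a*, *scn1laa* and *scn8aa* were lower with no overlap, *cacna1sb* was higher with no overlap, and *scn1lab* and *scn1bb* overlapped.

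The 7 genes with too few reads to test were mostly those known from skeletal muscle. *cacna1sa* had 26 reads over the 4 mutant libraries and 24 over the 4 sibling libraries, a depth-adjusted ratio of 0.835 with a 95% counting interval of 0.461 to 1.52. *cacng1a* had 19 reads in mutants and 17 in siblings (0.862, interval 0.424 to 1.77), and *cacng6b* 28 in mutants and 18 in siblings (1.2, interval 0.641 to 2.30). *cacng1b* had 3 reads in mutants and 0 in siblings, *cacng6a* 0 in mutants and 6 in siblings, and *scn4aa* 0 in mutants and 1 in siblings. No upper limit of the ratio was computed for *cacng1b*, *cacng6a* and *scn4aa*. Without the filter on low counts none of these genes was called (edgeR adjusted p 0.101 for *cacng6a* to 0.865 for *cacng1a*). *scn4ab*, a copy of the skeletal muscle sodium channel, had 19, 18, 4 and 9 reads in mutants, against 3, 0, 0 and 0 reads in siblings. The depth-adjusted ratio was 12.9 with an interval of 4.15 to 64.4, which covers counting error only, and without the filter on low counts it was higher with an adjusted p of 0.00439.

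For 19 genes both copies were tested under symbols that differ only in the final a or b. This allows the balance between them to be read in every library free of scaling. Copies whose symbols do not match, such as *scn12aa* and *scn5lab*, or that hold several identifiers, such as *cacna1db*, were not paired. Both copies were lower in 5 pairs, 1 copy was called in 6 and neither in 8. No share over all pairs of copies in the whole table was computed for these counts, so nothing is read from them. The log2 ratio of copy a over copy b did not overlap between genotypes in 2 of the 19 pairs, beside 28.7% of 2004 such pairs in the whole table. *cacnb2a* over *cacnb2b* stood at -1.40, -1.84, -1.66 and -1.71 in mutants, against -1.98, -1.96, -2.07 and -2.38 in siblings, a difference of the means of 0.45. *scn1laa* over *scn1lab* stood at -2.89, -2.69, -2.91 and -2.61 in mutants, against -2.20, -1.84, -2.18 and -2.13 in siblings, a difference of -0.69. For each the exact two-sided permutation p was 0.0286, the smallest that 4 against 4 samples can give, and 0.271 after adjustment over the 19 pairs. These 2 pairs could not pass after adjustment unless many others also reached 0.0286, so the adjusted value decides nothing about them. Leaving out a library can only keep or add pairs without overlap, so it is no check on these 2 pairs. The *cacna1ha* and *cacng2a* pairs joined them without mutant 1 and the *cacnb4a* and *cacng5a* pairs without mutant 3, for a count of 4 each, and the *scn8aa* pair without sibling 1 and the *scn4ba* pair without sibling 4, for a count of 3 each.

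**Figure D4:**
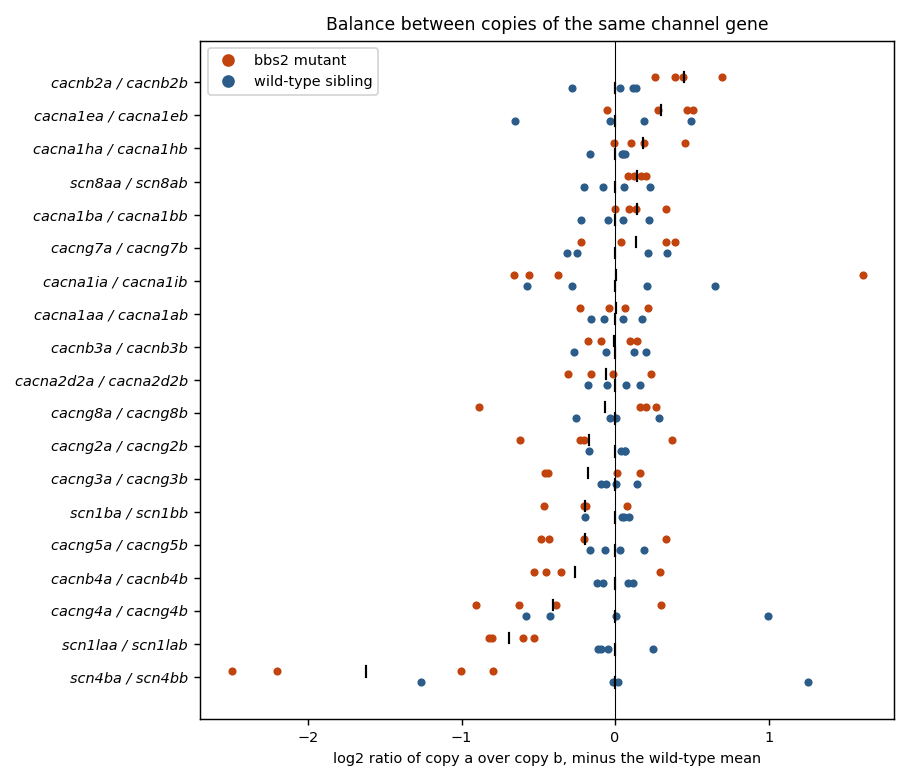
Log2 ratio of copy a over copy b for 19 channel genes, set to 0 at the sibling mean of each pair, in mutant (red, upper row) and sibling (blue, lower row) libraries, with bars at the means. The genotypes do not overlap for *cacnb2a* over *cacnb2b*, which shifts by 0.45, and for *scn1laa* over *scn1lab*, which shifts by -0.69.

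Of 37 tested entries in a list of genes whose proteins anchor or regulate these channels, 13 were lower and 2 higher, with a median log2FC of -0.22, beside 13% lower, 15.2% higher and a median of -0.01 over all tested genes. *CABP4*, a calmodulin-like regulator of the photoreceptor L-type channel, had 27.7, 30.1, 30.3 and 28.1 CPM in mutants, against 181, 146, 177 and 185 CPM in siblings (-2.56, SE 0.09, adjusted p = 1.35e-10). This decrease stands beside that of the cone markers, while the summed rod markers, mostly *rho*, overlapped between genotypes. A link to either was not tested. A second entry, *cabp4*, had 44.3, 86.1, 89.8 and 67.6 CPM in mutants, against 89.0, 86.1, 90.9 and 114 CPM in siblings, and was not called (-0.40, adjusted p = 0.230). The ankyrins *ank2b* (-0.36, adjusted p = 0.000444) and *ank3b* (-0.42, 0.000795 and -0.37, 0.0176 for its 2 identifiers), which tether membrane proteins to the spectrin skeleton and in the case of ankyrin-G anchor sodium channels at the axon initial segment, were lower as well. The more abundant ankyrin-G copy *ank3a* was not called, with 393, 302, 255 and 617 CPM in mutants, against 511, 773, 362 and 637 CPM in siblings (-0.55, interval -1.41 to 0.32, adjusted p = 0.324). The higher genes were *rem2* (0.84, adjusted p = 1.64e-06), a small GTPase that inhibits calcium channels, and *stac3* (1.09, 0.0121), the adaptor that brings the skeletal muscle L-type channel to the membrane. *stac3* had 4.94, 3.27, 4.70 and 5.62 CPM in mutants, against 2.16, 1.38, 1.95 and 3.16 CPM in siblings, so all mutant libraries exceeded all sibling libraries. *gem*, a relative of *rem2* that also inhibits calcium channels, went the other way, with 9.77, 7.80, 12.96 and 10.03 CPM in mutants, against 23.4, 38.3, 42.3 and 70.5 CPM in siblings (-2.11, SE 0.35, adjusted p = 0.0032). The other members of that GTPase family, *rrad* (0.13) and *rem1* (0.03), were not called.

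Of 30 tested entries for calcium release and clearance 7 were higher and 13 lower, with a median log2FC of -0.15, beside 15.2% higher and 13% lower over all tested genes. The higher ones included both copies of the store pump SERCA2, *atp2a2a* (1.96, adjusted p = 5.34e-08) and *atp2a2b* (0.89, 1.51e-05), and the calmodulin gene *calm1b* (0.45, 0.000149). The lower ones included the store pump *atp2a3* (-1.45, adjusted p = 0.000329), the IP3 receptor *itpr1b* (-0.64, 1.61e-05), through which stores release calcium, and the plasma membrane pump *atp2b3b* (-0.38, 0.000184). The skeletal muscle calcium release channels *ryr1a* (-0.43, adjusted p = 0.237) and *ryr1b* (-0.23, 0.071) were not called. In muscle they act with *cacna1sb* and *stac3*, which were higher. The tissue source of these transcripts was not tested. *calm3a* is listed under 2 identifiers that moved in opposite directions (0.25 and -0.47, adjusted p 0.00686 and 0.000392), so no direction is given for that gene.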

How the data were processed

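The authors depleted ribosomal RNA, prepared stranded libraries and aligned paired reads to GRCz11 (Ensembl release 104) with STAR 2.7.5a. They deposited raw gene counts, which gave all main tests, and TPM values, which were used to compare levels between genes and in 2 alternative fits. The strand setting of the counting and the tool behind the TPM are not given in the sources used here. Reads of near-identical copies and overlapping genes may be split between entries. The authors' comparison table (means, fold changes and p-values from DESeq2 1.30.1 in R 4.0.4) was not used, nor were 2 further tables. No reference genome was used, so no coordinates are given.

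Genotypes were compared on the counts with edgeR 4.0.16 (R 4.3.3), using TMM factors, filterByExpr with min.count set to 10, a robust quasi-likelihood fit and a model of genotype alone. Adjustment was by Benjamini-Hochberg across every tested gene, with FDR 0.05 as the limit. CPM of pairs used a prior count of 2. The fit was checked on simulated counts. Alternatives used DESeq2 1.42.0, limma 3.58.1 (voom, or log2(TPM + 0.1) and log2(TPM + 1)), other scalings, no filter and left-out libraries. The labels call the samples biological replicates. No 2 libraries of the same genotype agreed within sampling noise.

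Values in every library are given for called channel genes with a log2FC beyond 0.5 and for the 2 most abundant genes of each class by TPM, and of each pathway list up to 3 called genes in each direction. Other genes named were chosen after their values were seen. The members and lists were chosen with earlier results of these data known.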

Additional observations from a re-analysis of the deposited data

Results flagged for a closer look

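In 6 of the 106 groups of 4 libraries examined for the tested channel genes, 1 library stood far from the other 3, and chance alone marks about 1 group in 20. In mutants these were *cacna1eb* at 3.95 CPM in mutant 2 (6.27 to 6.70 CPM in the other 3), *cacnb3b* at 41.8 CPM in mutant 1 (31.6 to 33.0 CPM), *cacng8a* at 2.14 CPM in mutant 4 (4.44 to 4.83 CPM), *cacng8b* at 36.5 CPM in mutant 3 (40.9 to 41.6 CPM) and *scn1bb* at 77.9 CPM in mutant 4 (70.6 to 71.5 CPM). In siblings it was *scn1lab* at 54.0 CPM in sibling 4 (46.1 to 46.4 CPM). Of these genes only *cacng8b* was called, a call kept with any 1 library left out but lost with library totals (adjusted p = 0.0785, edgeR) and in the limma fits to TPM (0.0976 and 0.0964).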

How the results depend on the processing

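No called channel gene reversed its direction, and 12 of the 26 called kept their call in every alternative. The 12 include every identifier listed as *cacna1db*, among them the identifier that the reference names *cfap74*. The 24 lower channel genes of 53 tested became 14 of 53 with library totals, where 7.79% of all genes were lower. They became 11 of 53 in each TPM fit (log2(TPM + 0.1) and log2(TPM + 1)), where 8.22% and 8.32% of all genes were lower. With 1 library left out they numbered 19 to 24. The 2 higher genes became 1 in each TPM fit and with *cacna1db* as 1 gene, an alternative chosen after seeing the data, and 2 to 4 with 1 library left out, where *scn4ab* and *scn4bb* joined. They became 3 with library totals, where *scn4bb* joined, and also 3 with DESeq2 and with no filter. The median log2FC of -0.30 was -0.20 with library totals and -0.33 to -0.25 with 1 library left out. Library totals also raised the share of higher calls over all genes to 71.3%, beside 54% with TMM. The pairs of copies whose ratio did not overlap numbered 2 to 4 with 1 library left out, where the count cannot fall. The whole table gave 3633 to 4990 calls under all alternatives, beside 4824, and the partner and calcium handling lists 25 to 35, beside 35. Samples with the same replicate number did not deviate together (r -0.066 to 0.06), and with the replicate number as a block 25 channel genes were lower and 3 higher, with 4759 calls over all genes. Low depth limits *cacna1ib*, *scn4bb*, the 7 untested genes and ENSDARG00000075917, the identifier named *cfap74*, which had 2, 7, 0 and 6 reads in siblings.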
